A study of Mus musculus with 6 samples.

Results

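The 47 genes described here code for the machinery of mitosis: the kinases and cyclins that start it, the chromosome, kinetochore and spindle proteins that carry it out, and the proteins that end it. They are given by a list of gene symbols, a rule that itself uses no measured value, and all 47 were found among the 21436 genes of the deposited table. The list was chosen, however, with earlier results of these data known. Expression was measured by RNA sequencing in 3T3-L1 cells, a line of mouse embryonic fibroblasts of wild-type genotype that can be induced to become adipocytes. All 6 cultures were kept for 72 h in high-glucose medium with 10% serum, 2 µM rosiglitazone, 1 µM dexamethasone, 0.5 mM IBMX and 10 mg/L insulin, a mixture that induces adipogenesis. For 3 libraries the mouse cells were cultured by themselves (alone). For the other 3 they grew under a Transwell insert with 0.4 µm pores that carried mesenchymal stem cells of human umbilical cord (co-culture), so the comparison asks what the human cells did to expression in the mouse cells without touching them. All libraries are of 1 cell line. Nothing in the labels tells if replicates were cultured separately, and a p-value here is therefore a statement on the spread of these 6 libraries, part of which may be technical.

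Entry into mitosis is set by CDK1 bound to cyclin B, and the kinases PLK1 and aurora A and B act with it on centrosomes, chromosomes and spindle. The spindle checkpoint holds the cell until every kinetochore is attached; CDC20 then turns on the anaphase-promoting complex, a ubiquitin ligase that marks securin and cyclin B for destruction, and separase opens the sister chromatids. Most of these genes are transcribed mainly in G2 and mitosis. Confluent 3T3-L1 cells given the hormone mixture divide again before they differentiate, a step known as mitotic clonal expansion. In RNA from whole cultures, fewer dividing cells and less RNA per dividing cell cannot be told apart.

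The 6 libraries held 29603755 to 38357563 reads, and alone replicate 1 differed more from the other alone libraries than any other pair within a group did (mean chi-square per gene 9.33 and 11.9, against 3.44 to 4.79). All 10 markers listed for fibroblasts and preadipocytes were expressed, at a summed 3281 to 3408 FPKM alone and 3485 to 3533 FPKM in co-culture, but they moved in opposite directions: Dcn, Col3a1 and Thy1 were called lower, Dlk1, Pdgfra, Pdgfrb and Vim higher, and 3 were not called. FPKM is a read number per kilobase of gene, scaled to the size of the library, so levels of different genes can be compared. How well depends on the gene lengths used. The 9 adipocyte markers in the table summed to 271 to 291 FPKM alone and 242 to 253 FPKM in co-culture, nearly all of it Lpl, lipoprotein lipase, which was called lower (1.19-fold, limma adjusted p = 0.00135), and Fabp4, which was not called. The other 7 were below the filter, and Adipoq, Cfd, Cidec and Cd36 had at most 3 reads in either group. The part of these markers in the results on the 47 genes was not tested. The 5 epithelial markers in the table summed to at most 0.0839 FPKM and the 4 endothelial ones to at most 0.262 FPKM in any library, and 8 macrophage and leukocyte markers to 17.2 to 20.7 FPKM alone and 15.3 to 18.5 FPKM in co-culture. Cd14 and Cd68, neither of them called, made up most of this last sum; Lyz2, below the filter, had 149 reads alone and 47 in co-culture, with every co-culture library below every alone library, and Tyrobp 11 and 3 reads. The 6 globin and neutrophil genes summed to 17.3 to 32.5 FPKM alone and 3.71 to 19.3 FPKM in co-culture. Of these 6, Hbb-bs and Hba-a1 were called lower, 5 (Hbb-bs, Hbb-bt, Hba-a1, Hba-a2 and S100a9) had 0 reads in co-culture replicate 1, and their part and that of Lyz2 in the results below was not tested. Transcripts of 13 protein-coding mitochondrial genes took 4.40% to 4.62% of reads alone and 4.82% to 4.996% in co-culture; their part was not tested either.

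Some of the 47 mitosis genes fell in co-culture, by small amounts, and most did not pass the test. The counts were 19 that fell (1.10-fold to 1.54-fold, median 1.31-fold), 1 that rose and 27 that were not called. The smallest p was that of Ube2c, the ubiquitin-conjugating enzyme of the anaphase-promoting complex, at 19.3, 20.4 and 19.3 FPKM alone and 13.6, 14.5 and 14.2 FPKM in co-culture. It fell 1.39-fold (log2 change −0.45, SE 0.0429, limma adjusted p = 3.71e-05), and the groups did not overlap. The largest ratio was that of the kinetochore gene Nuf2, 1.54-fold, and the 1 gene that rose was Tpx2, a spindle assembly factor. Calls in either direction covered 20 of the 47, beside 31.8% of all tested genes. The share of genes called lower was 40.4% among the 47, beside 17.9% of the 10055 genes tested, and the share called higher was 2.13% beside 13.9%. Without alone replicate 1, the library that stood apart, 15 of the 47 fell (median log2 change −0.15), and without co-culture replicate 1, which had no reads of the 5 globin and neutrophil genes, 16 fell (−0.15). All 47 passed the filter on low values (a mean of at least 1 FPKM). Their median log2 change was −0.14, beside −0.00 over all tested genes, and 42 of the 47 changes were below 0, beside 50.9% of all tested genes. Fold changes are ratios of mean FPKM. Values called log2 change are differences of mean log2(FPKM + 1), so they come out too small for weakly expressed genes. The test was limma over all tested genes with Benjamini-Hochberg adjustment, called below 0.05.

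**Figure D1:**
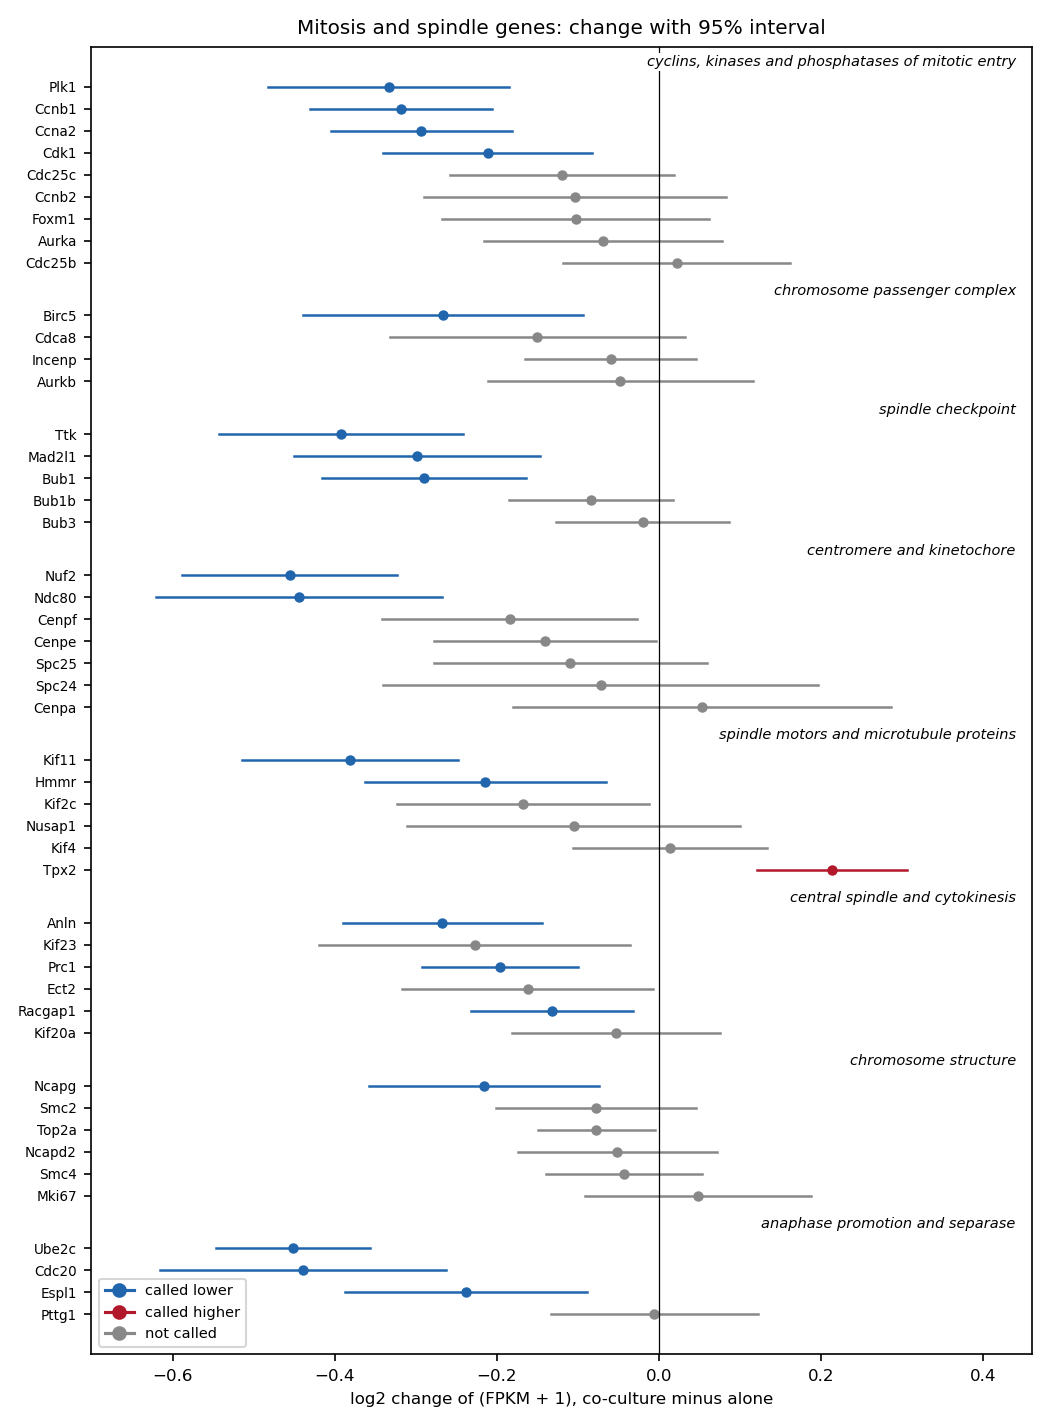
Change of each of the 47 genes in co-culture against alone, grouped by role. Points are log2 changes of (FPKM + 1), lines are 95% intervals from limma, blue genes were called lower (19), red higher (1, Tpx2) and grey not called (27).

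In every co-culture library the typical gene of the set was below its level alone. The median of the 47 genes, each as a percent of its mean over the alone libraries, was 86.3%, 88.9% and 84.7% in co-culture replicates 1 to 3, against 99.6% to 100.1% in the 3 alone libraries. The number of genes below their own alone mean was 36, 41 and 43 in the co-culture libraries and 23 to 25 in the alone libraries. The alone libraries were set against their own mean, so their percents and counts lie near the middle by construction. They are no separate measure of spread. Summed over the 47 genes the level was 385, 383 and 381 FPKM alone and 354, 354 and 342 FPKM in co-culture. Without the 3 most abundant genes, Top2a, Bub3 and Tpx2, it was 246, 245 and 243 FPKM alone and 212, 215 and 204 FPKM in co-culture, and on both sums every co-culture library was below every alone library. The groups did not overlap for 26 of the 47 genes: 25 had every co-culture library below every alone library, beside 24.8% of all tested genes, and Tpx2 had every one above, beside 21.3%. The 25 hold all 19 called genes and 6 that did not pass the test, namely Cdc25c, Bub1b, Cenpf, Kif2c, Top2a and Smc2.

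**Figure D2:**
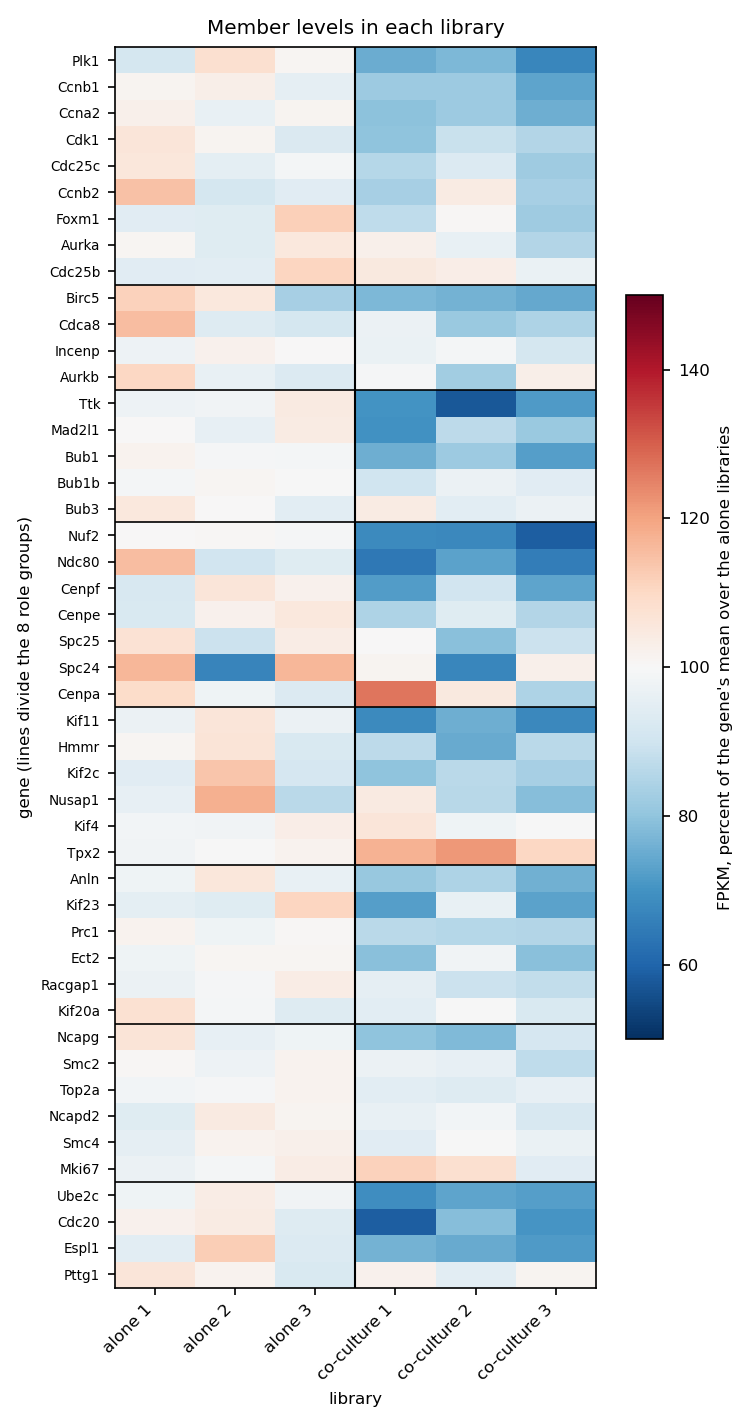
Level of each gene in each of the 6 libraries as a percent of its mean over the 3 alone libraries (colour scale from 50% to 150%), with lines between the 8 role groups. The co-culture columns are bluer for most genes, while Tpx2 is red in all 3 of them and Spc24 varies as much within a group as between groups.

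Many of these genes share letters in their promoters, a property that the choice of genes did not use. The cell cycle genes homology region, TTTGAA, is a site bound by the MuvB complexes (DREAM in resting cells, B-MYB and FOXM1 with MuvB in G2), and CCAAT is the site of NF-Y. All genes printed here hold TTTGAA in the stretch shown, which is not so for every gene that fell. No TTTGAA lies in that stretch of Nuf2, Ccnb1, Ttk, Ndc80, Bub1, Plk1, Anln, Mad2l1, Birc5, Hmmr and Racgap1, which also fell. Of these, Ttk, Ndc80, Plk1, Anln, Hmmr and Racgap1 hold it past the end of that stretch, 5 to 30 bases after the start. Prc1, which fell too, has a stretch with it and a stretch without it. The sequences below show how these letters lie in genes that fell (Kif11, Cdc20, Ube2c, Cdk1, Espl1 and Ncapg) and in 2 that were not called although they are common labels of dividing cells (Top2a and Mki67). Each is 141 bases of the RefSeq promoter (GRCm38.p6) that end 10 bases before the annotated start, written 5′ to 3′ on the strand of the gene, and capitals mark the homology region (TTTGAA, read as TTCAAA when it lies on the other strand) and the NF-Y site (CCAAT, read as ATTGG when it lies on the other strand). They lie at chr19:37376232-37376372 (plus strand), chr4:118437353-118437493 (minus strand), chr2:164769779-164769919 (plus strand), chr10:69352922-69353062 (minus strand), chr15:102296143-102296283 (plus strand), chr5:45669775-45669915 (plus strand), chr11:99024199-99024339 (minus strand) and chr7:135716389-135716529 (minus strand).
Kif11: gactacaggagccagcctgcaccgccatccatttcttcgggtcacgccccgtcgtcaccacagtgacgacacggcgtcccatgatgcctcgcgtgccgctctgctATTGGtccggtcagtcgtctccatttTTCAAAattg
Cdc20: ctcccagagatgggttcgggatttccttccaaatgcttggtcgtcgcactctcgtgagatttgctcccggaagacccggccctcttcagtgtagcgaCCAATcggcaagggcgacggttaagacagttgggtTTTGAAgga
Ube2c: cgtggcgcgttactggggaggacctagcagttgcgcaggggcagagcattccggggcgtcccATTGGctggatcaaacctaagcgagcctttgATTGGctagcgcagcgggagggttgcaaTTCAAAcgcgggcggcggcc
Cdk1: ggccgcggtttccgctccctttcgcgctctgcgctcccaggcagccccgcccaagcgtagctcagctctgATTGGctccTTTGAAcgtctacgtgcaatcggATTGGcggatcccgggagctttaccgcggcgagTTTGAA
Espl1: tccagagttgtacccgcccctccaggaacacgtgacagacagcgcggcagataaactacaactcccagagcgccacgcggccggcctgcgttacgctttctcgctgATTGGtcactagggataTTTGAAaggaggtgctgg
Ncapg: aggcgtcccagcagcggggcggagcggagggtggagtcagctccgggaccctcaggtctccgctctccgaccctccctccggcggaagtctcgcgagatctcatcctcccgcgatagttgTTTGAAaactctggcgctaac
Top2a: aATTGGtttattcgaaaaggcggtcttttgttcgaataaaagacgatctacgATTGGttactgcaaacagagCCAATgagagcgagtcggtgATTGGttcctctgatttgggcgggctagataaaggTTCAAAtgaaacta
Mki67: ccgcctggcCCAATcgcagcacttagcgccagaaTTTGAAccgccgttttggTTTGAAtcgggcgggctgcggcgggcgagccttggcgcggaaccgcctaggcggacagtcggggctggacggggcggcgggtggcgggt

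RefSeq windows from 250 bases before to 50 after the start were matched for 38 of the 47 genes. The 9 without a window are Ccna2, Cdc25c, Foxm1, Aurkb, Incenp, Spc24, Tpx2, Kif20a and Smc4. On either strand, TTTGAA was found in 29 of the 38 (76.3%), against 13.7% of the 8112 other tested genes with a window, and CCAAT in 30 (78.9%), against 43.6%. Both were found in the same window for 26 genes (68.4%), against 5.55% of the others. The E2F-type words TTTCCCGC and TTTGGCGC were rare in both (2 of 38, 5.26%, against 3.61%). TTTGAA lay between 50 bases before and 49 after the start in 26 of the 29 genes that hold it. By call, TTTGAA was in 13 of the 18 genes with a window that were called lower (72.2%) and in 16 of the 20 that were not called (80%). Lists of other cell-cycle genes, given below, held these words too, here as a share of genes with a window. TTTGAA was in 60.7% of spindle, centrosome and cytokinesis genes, 36.7% of centromere and kinetochore genes and 36.4% of cohesin and condensin genes. It was in 30% of mitotic entry regulators, 23.8% of G1 regulators, 18.8% of anaphase-promoting complex genes and 12.1% of DNA replication genes. CCAAT was in 36.4% to 66.7% of the genes of each list. Among tested genes outside the set, 18.2% of the 450 with both words were called lower, and 17.8% of the 7662 without both. These are matches of letters; none was tested as a binding site.

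**Figure D3:**
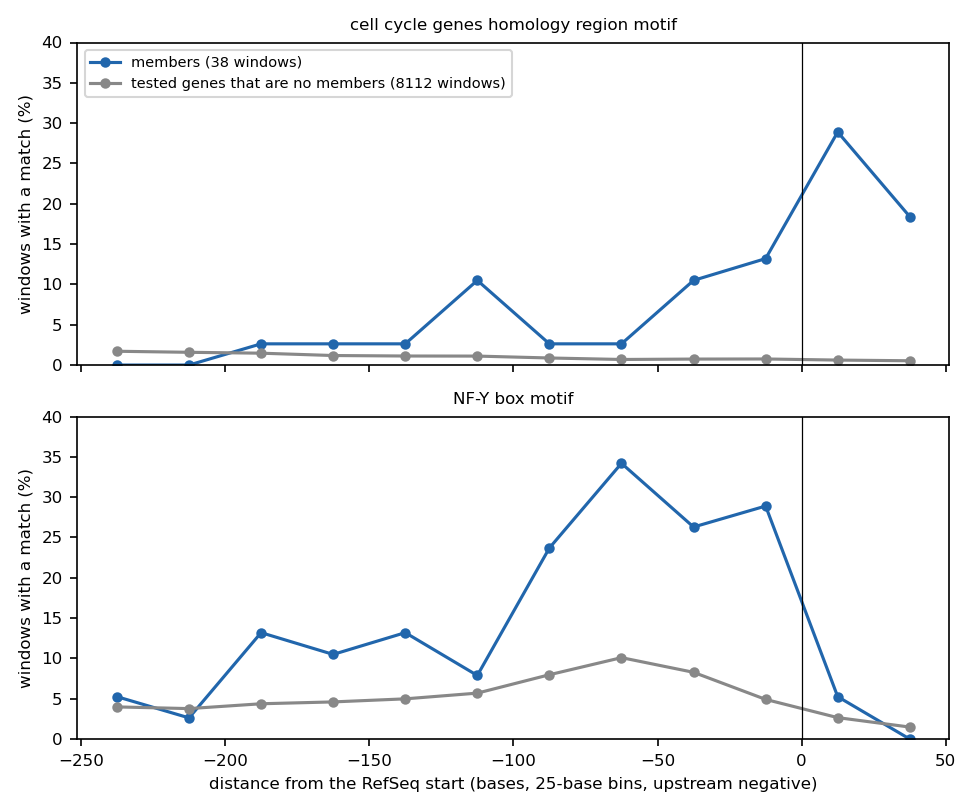
Share of promoter windows with a match in each 25-base bin by distance from the RefSeq start, for the 38 genes of the set (blue) and 8112 other tested genes (grey), using 1 window per gene. The upper panel shows the cell cycle genes homology region, which in the set is most frequent in the 25 bases from the start on (28.9% of windows, against 0.616%), and the lower panel the NF-Y site, most frequent 51 to 75 bases before it (34.2%, against 10.1%).

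Among the 9 regulators of mitotic entry, 4 fell (44.4%, beside 17.9% of all tested genes) and 5 did not pass the test (median log2 change −0.12). Ccnb1, cyclin B1, was at 17.1, 17.3 and 16.1 FPKM alone and 13.8, 13.8 and 12.4 FPKM in co-culture. Every co-culture library was below every alone library, and the fall was 1.26-fold (log2 change −0.32, SE 0.0507, limma adjusted p = 0.00109). Ccna2, cyclin A2, which partners CDK2 in S phase and CDK1 in G2, was at 7.12, 6.7 and 7.05 FPKM alone and 5.52, 5.702 and 5.26 FPKM in co-culture, again without overlap (1.27-fold lower, limma adjusted p = 0.00168). Plk1, the polo-like kinase of centrosome maturation and cytokinesis, was at 3.203, 3.79 and 3.54 FPKM alone and 2.64, 2.73 and 2.37 FPKM in co-culture (1.36-fold lower, limma adjusted p = 0.00388). Cdk1, the kinase itself, was at 9.03, 8.63 and 7.89 FPKM alone and 6.81, 7.57 and 7.26 FPKM in co-culture (1.18-fold lower, limma adjusted p = 0.0192), without overlap. The other cyclin B, Ccnb2, was not called, with co-culture replicate 2 above alone replicates 2 and 3 (log2 change −0.10, 95% interval −0.29 to 0.08). Aurka, aurora kinase A, and Foxm1, a transcription factor for G2 and mitosis genes, had log2 changes of −0.07 (95% interval −0.22 to 0.08) and −0.10 (−0.27 to 0.06) and were not called. Of the CDC25 phosphatases, which activate CDK1, the members of this group were not called either, with 0.02 (−0.12 to 0.16) for Cdc25b and −0.12 (−0.26 to 0.02) for Cdc25c. Cdc25a, from another list, was called lower (1.22-fold, limma adjusted p = 0.00965).

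By median, the group that differed most was that of genes that trigger anaphase (median log2 change −0.34). Of its 4 genes 3 fell (75%, beside 17.9% of all tested genes). Cdc20, the activator of the anaphase-promoting complex, was at 5.78, 5.88 and 5.29 FPKM alone and 3.33, 4.44 and 3.99 FPKM in co-culture. It fell 1.44-fold (log2 change −0.44, SE 0.0796, limma adjusted p = 0.00223), and co-culture replicate 1 was the lowest of the 6. Espl1, separase, was at 1.401, 1.67 and 1.38 FPKM alone and 1.13, 1.11 and 1.06 FPKM in co-culture (1.35-fold lower, limma adjusted p = 0.0215). Pttg1, securin, the inhibitor that separase is freed from, was at 6.14, 5.9 and 5.36 FPKM alone and 5.91, 5.499 and 5.89 FPKM in co-culture, with overlapping groups, and its interval ran from −0.13 to 0.12 on the log2 scale.

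In the spindle checkpoint 3 of 5 genes fell (60%, beside 17.9% of all tested genes; median log2 change −0.29). Ttk, the MPS1 kinase at the head of the checkpoint, was at 2.37, 2.38 and 2.54 FPKM alone and 1.71, 1.401 and 1.74 FPKM in co-culture, and co-culture replicate 2 was lowest (1.502-fold lower, log2 change −0.39, SE 0.06802, limma adjusted p = 0.00176). Bub1, the kinase that brings other checkpoint proteins to the kinetochore, was at 3.496, 3.42 and 3.41 FPKM alone and 2.601, 2.82 and 2.49 FPKM in co-culture (1.31-fold lower, limma adjusted p = 0.00343). Mad2l1, which codes for MAD2, the protein that binds CDC20, was at 8.38, 8.02 and 8.703 FPKM alone and 5.84, 7.27 and 6.81 FPKM in co-culture (1.26-fold lower, limma adjusted p = 0.00805). None of these 3 had overlapping groups. Bub1b (BUBR1, a subunit of the same inhibitory complex) was at 8.92, 9.08 and 8.997 FPKM alone and 8.096, 8.74 and 8.48 FPKM in co-culture, where the groups did not overlap but the difference was small (95% interval −0.18 to 0.02). Bub3, the partner of both BUB1 and BUBR1 and the second most abundant of the 47, was at 42.6, 40.5 and 38.3 FPKM alone and 42.1, 38.3 and 39.3 FPKM in co-culture, and its groups overlapped (95% interval −0.13 to 0.09).

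Of 7 centromere and kinetochore genes 2 fell (28.6%, beside 17.9% of all tested genes), with a median log2 change of −0.14. The NDC80 complex, which holds microtubules at the kinetochore, has 4 subunits. Nuf2 was at 3.36, 3.37 and 3.33 FPKM alone and 2.29, 2.27 and 1.98 FPKM in co-culture, the alone values nearly identical and all co-culture values far below them (log2 change −0.46, SE 0.05996, limma adjusted p = 3.37e-04). Ndc80 was at 5.44, 4.25 and 4.43 FPKM alone and 3.02, 3.44 and 3.08 FPKM in co-culture (1.48-fold lower, log2 change −0.44, limma adjusted p = 0.00207), with alone replicate 1 the highest. The subunits at the other end of the complex were not called: the log2 change was −0.11 (95% interval −0.28 to 0.06) for Spc25 and −0.07 (−0.34 to 0.20) for Spc24. Spc24 was also the least counted of the 47, with 41 reads in its lowest library. Whether the 4 subunits differ was not tested. Cenpf, a large kinetochore and nuclear matrix protein and the gene with the lowest level of the 47, was at 1.19, 1.37 and 1.32 FPKM alone and 0.933, 1.17 and 0.955 FPKM in co-culture, without overlap, and did not pass (limma adjusted p = 0.0712). Cenpe, the kinetochore kinesin, was at 3.11, 3.44 and 3.55 FPKM alone and 2.85, 3.15 and 2.87 FPKM in co-culture (limma adjusted p = 0.11). Cenpa, the centromeric histone H3 variant and the most abundant of this group, was at 6.23, 5.57 and 5.31 FPKM alone and 7.23, 5.97 and 4.83 FPKM in co-culture, with co-culture replicate 1 the highest and replicate 3 the lowest of all 6 (95% interval −0.18 to 0.29).

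The chromosome passenger complex places aurora B on centromeres and then on the central spindle. Of its 4 genes 1 fell (25%, beside 17.9% of all tested genes), and the median log2 change was −0.10. Birc5, survivin, was at 2.82, 2.66 and 2.11 FPKM alone and 1.96, 1.93 and 1.88 FPKM in co-culture (1.32-fold lower, limma adjusted p = 0.0253). Its kinase Aurkb was at 1.91, 1.67 and 1.62 FPKM alone and 1.72, 1.43 and 1.78 FPKM in co-culture, with overlapping groups (95% interval −0.21 to 0.12). Cdca8, borealin, was at 5.12, 4.15 and 4.06 FPKM alone and 4.32, 3.61 and 3.76 FPKM in co-culture (−0.33 to 0.03), and Incenp, the scaffold, at 8.43, 8.85 and 8.68 FPKM alone and 8.35, 8.57 and 7.88 FPKM in co-culture (−0.16 to 0.05). For Cdca8 the overlap came from co-culture replicate 1, which was above alone replicates 2 and 3.

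Of 6 genes of spindle motors and microtubule proteins, 2 fell (33.3%, beside 17.9% of all tested genes), 1 rose and 3 were not called. Over all tested genes 13.9% rose. Kif11, the kinesin EG5 that pushes the spindle poles apart, was at 3.54, 3.87 and 3.54 FPKM alone and 2.48, 2.76 and 2.47 FPKM in co-culture (1.42-fold lower, log2 change −0.38, SE 0.0602, limma adjusted p = 9.97e-04). Tpx2 was at 31.4, 31.9 and 32.5 FPKM alone and 37.6, 38.9 and 35.3 FPKM in co-culture, every co-culture library above every alone library, and its mean was 1.17-fold higher (log2 change 0.21, SE 0.0417, limma adjusted p = 0.00331). TPX2 activates aurora A and helps nucleate spindle microtubules, while Aurka itself was not called. At 4883 to 6420 reads per library Tpx2 was among the most deeply counted of the set, and its call held under all 18 alternative settings. Hmmr, a microtubule-associated protein of the spindle, was at 4.02, 4.25 and 3.68 FPKM alone and 3.46, 2.98 and 3.45 FPKM in co-culture (1.21-fold lower, limma adjusted p = 0.03304). Kif2c, the microtubule-depolymerising kinesin MCAK, was at 1.91, 2.297 and 1.84 FPKM alone and 1.61, 1.74 and 1.68 FPKM in co-culture, without overlap but not called (limma adjusted p = 0.0942). Nusap1 and Kif4, a chromokinesin, were not called (95% intervals −0.31 to 0.10 and −0.11 to 0.13).

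Of 6 genes of the central spindle and cytokinesis, 3 fell (50%, beside 17.9% of all tested genes), with a median log2 change of −0.18. Prc1, which bundles the microtubules of the midzone, was at 8.93, 8.57 and 8.82 FPKM alone and 7.58, 7.54 and 7.48 FPKM in co-culture (1.17-fold lower, limma adjusted p = 0.00673), with 3 closely spaced values in each group. Anln, anillin, the scaffold of the contractile ring, was at 6.86, 7.43 and 6.77 FPKM alone and 5.697, 5.95 and 5.34 FPKM in co-culture (1.24-fold lower, limma adjusted p = 0.00458). Racgap1, a subunit of centralspindlin, was at 19.7, 20.2 and 20.98 FPKM alone and 19.4, 18.1 and 17.8 FPKM in co-culture, the smallest fall that was called (1.101-fold, limma adjusted p = 0.0454). Its partner in centralspindlin, Kif23, was not called, at 2.81, 2.77 and 3.27 FPKM alone and 2.14, 2.85 and 2.17 FPKM in co-culture (limma adjusted p = 0.0686), and its co-culture replicate 2 lay within the alone range. Ect2, the exchange factor that activates RhoA at the cell equator, and Kif20a, a kinesin of the midzone, were not called (95% intervals −0.32 to −0.01 and −0.18 to 0.08).

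Of 6 genes of chromosome structure, 1 fell (16.7%, near the 17.9% of all tested genes), with a median log2 change of −0.06. Ncapg, a condensin I subunit, was at 4.84, 4.36 and 4.45 FPKM alone and 3.64, 3.55 and 4.16 FPKM in co-culture (1.203-fold lower, limma adjusted p = 0.0266). Top2a, topoisomerase II alpha, which untangles sister chromatids, had the highest level of the 47, at 64.9, 65.4 and 66.7 FPKM alone and 62.2, 61.4 and 62.9 FPKM in co-culture; the groups did not overlap, the difference was 1.06-fold and it did not pass (limma adjusted p = 0.0949). Smc4 and Smc2, the ATPases of both condensins, were at 15.8, 16.9 and 16.96 FPKM alone and 15.6, 16.5 and 15.98 FPKM in co-culture for Smc4 and 3.72, 3.62 and 3.78 FPKM alone and 3.59, 3.55 and 3.24 FPKM in co-culture for Smc2, and neither was called. Mki67, the Ki-67 protein on the surface of mitotic chromosomes and a widely used label of dividing cells, had an interval of −0.09 to 0.19, and its log2 change was above 0, at 0.05. Ncapd2, another condensin I gene, was not called either, with an interval of −0.17 to 0.07.

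Levels ranged from 1.16 FPKM (Cenpf) to 63.9 FPKM (Top2a), with a median of 3.94 FPKM, below the 9.18 FPKM of all tested genes. Of the 47, 7 were at 10 FPKM or more. From the highest down these were Top2a, Bub3, Tpx2, Racgap1, Ube2c, Smc4 and Ccnb1, and the first 3 held 37.9% of the summed level. Of these 7, 3 fell (Racgap1, Ube2c and Ccnb1), 1 rose and 3 were not called. All 5 genes that were at least 1.4-fold lower (Nuf2, Ttk, Ndc80, Cdc20 and Kif11) were below 5 FPKM, and the fall of Ube2c, at 16.9 FPKM, was 1.39-fold. With a filter at 5 FPKM the median log2 change was −0.077, over 19 of the 47 genes. Read numbers ran from 41 (Spc24) to 13412 (Top2a) per gene and library.

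**Figure D4:**
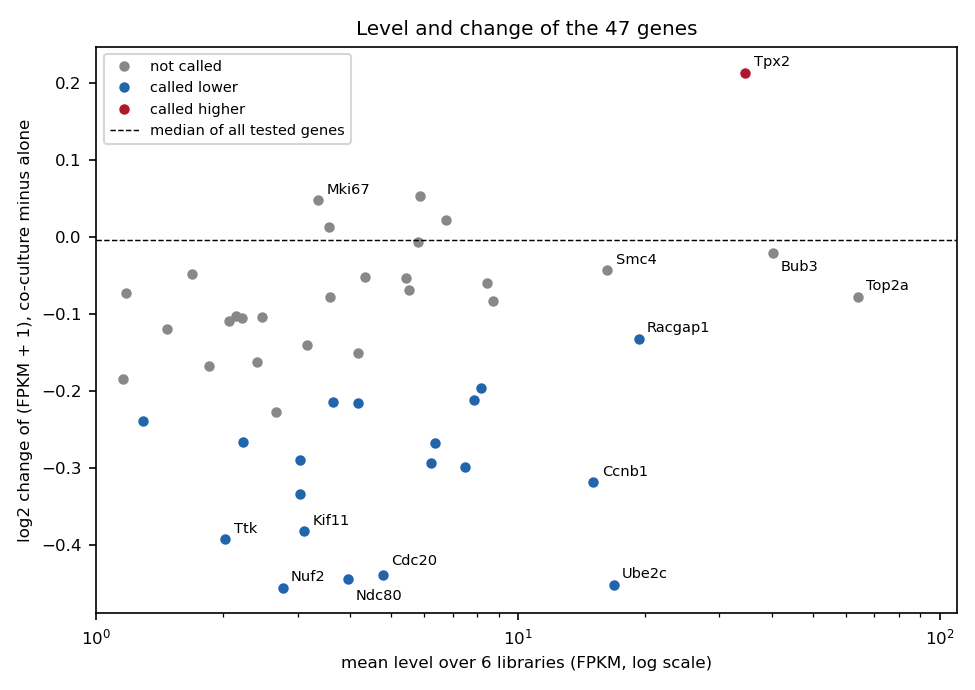
Mean level over the 6 libraries (FPKM, log axis) against the log2 change of (FPKM + 1) for each of the 47 genes, coloured by call; the dashed line is the median of all tested genes. Top2a, Bub3 and Tpx2 stand apart in level, and genes called lower span levels from 1.29 FPKM (Espl1) to 19.3 FPKM (Racgap1).

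The calls differed in how much they rested on 1 library. Leaving out each library in turn left 14 to 18 genes lower, with 14 without alone replicate 2, and 13 of the 19 were called every time. Birc5 was lost without any 1 of the libraries other than alone replicate 3 (limma adjusted p 0.0519 to 0.0847), and Ncapg in 4 cases, without alone replicates 1 and 3 and co-culture replicates 1 and 2 (0.0515 to 0.0917). Racgap1 was lost in 4 cases as well, without replicates 2 and 3 of either group (0.0929 to 0.159), and also under TPM scaling, quantile scaling and without the variance trend. Birc5 was not called by limma-voom on the recovered reads. Cdk1 was lost without co-culture replicate 1 or either of alone replicates 1 and 2 (limma adjusted p 0.0548 to 0.0716), Hmmr without co-culture replicate 2 or either of the same alone replicates (0.0691 to 0.117), and Espl1 without alone replicate 2 (0.0851) or co-culture replicate 3 (0.0678). Kif23, Cenpf and Ect2 were called lower when co-culture replicate 2 was left out. Cenpf was also called lower by limma-voom (adjusted p = 0.011), with quantile scaling, with array weights and without the variance trend. Kif23 was also called lower by limma-voom (adjusted p = 0.0483) and with array weights.

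Some genes of the set overlap a neighbour, and whether reads were counted by strand is not stated in the sources used here. In GENCODE M21 (mm10), more than 10% of the merged exons of Ccna2, Cdc25c, Kif4, Kif20a, Prc1, Ncapg and Ube2c lie over exons of a gene on the opposite strand, so their values are uncertain. For Ube2c the neighbour is Tnnc2, at 0.223 ± 0.223 FPKM alone and 0.235 ± 0.162 FPKM in co-culture (SD, n = 3). For Ccna2 it is Exosc9, at 16.4 ± 0.873 and 13.8 ± 1.02 FPKM, which was itself called lower (limma adjusted p = 0.0119). The neighbours of Prc1 (Rccd1) and Ncapg (Lcorl) were at 1.76 and 1.02 FPKM alone and were not called. The 47 genes lie on 16 chromosomes; Ube2c lies on chromosome 2 from 164769898 to 164778822, Nuf2 on chromosome 1 from 169497934 to 169531464, Tpx2 on chromosome 2 from 152847964 to 152895321 and Top2a on chromosome 11 from 98992943 to 99024189.

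Other mitosis genes, from lists that do not share any of the 47, were tested in the same fit. Over 5 such lists 17 of 104 tested genes fell and 7 rose (median log2 change −0.05), and 20 more did not pass the filter on low values. The share lower, 16.3%, was near the 17.9% of all tested genes, and 13.9% of all tested genes rose. How the share lower differs from the share among the 47 was not tested. Among other regulators of mitotic entry and the checkpoint 5 of 21 (23.8%) fell: Cks1b, the CDK-binding subunit (37.9 ± 2.12 to 30.9 ± 1.44 FPKM, limma adjusted p = 0.00149), the mitotic kinase gene Pbk (1.36-fold lower), Cdc25a (1.22-fold), and Lin52 and Lin9, subunits of MuvB (Lin52 1.43-fold lower, limma adjusted p = 0.0144, and 0.0554 without alone replicate 3). That count was 3 without alone replicate 3. The call of Lin9 was close to the threshold (limma adjusted p = 0.0459), and its groups overlapped. Lin37 and Lin54, the other MuvB genes of this list, were not called (log2 change −0.05 and −0.10, limma adjusted p = 0.659 and 0.262). Among other spindle, centrosome and cytokinesis genes 4 of 26 (15.4%) fell and 1 rose, with Troap (1.37-fold lower), the chromokinesin Kif22 (1.39-fold), Kif15 (1.38-fold), a kinesin that acts beside KIF11, and Plk4, the kinase of centriole duplication (1.24-fold). The call of Plk4 was lost without any 1 library other than alone replicate 1 (limma adjusted p 0.0724 to 0.127), and the rise of Psrc1 in that list without any 1 but alone replicate 1.

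Among other centromere and kinetochore genes 3 of 24 fell (12.5%, below the 17.9% of all tested genes) and 1 rose. Ska2 (1.28-fold lower, 7.85 ± 0.633 to 6.15 ± 0.585 FPKM) and Mis12 (1.14-fold) fell whichever library was left out. Pmf1 (1.28-fold lower) was lost without replicate 1 or 2 of either group (limma adjusted p 0.0818 to 0.155). The rise of Hjurp, the chaperone of CENP-A (1.16-fold), was lost without any 1 library but co-culture replicate 3 (0.0524 to 0.157). Among cohesin and other condensin genes 2 of 16 fell (again 12.5%) and 1 rose. Ncaph, the kleisin of condensin I, fell (1.31-fold lower, 6.05 ± 0.337 to 4.63 ± 0.306 FPKM, limma adjusted p = 0.00226), as did Cdca5, sororin (1.29-fold, lost without any 1 library but alone replicate 2, 0.0606 to 0.132). Ncaph2, its counterpart in condensin II, rose (1.13-fold, 29.3 ± 0.502 to 33.2 ± 0.784 FPKM, limma adjusted p = 0.00458).

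Some genes of the anaphase-promoting complex and its partners were called, in both directions. Ube2s, the enzyme that extends the ubiquitin chains that UBE2C begins, fell 1.34-fold (49.4 ± 0.956 to 36.8 ± 0.793 FPKM, limma adjusted p = 1.61e-05), and the core subunit gene Cdc27 fell 1.14-fold. The small subunit genes Anapc15 (1.52-fold higher, 2.89 ± 0.0494 to 4.39 ± 0.537 FPKM, limma adjusted p = 9.65e-04) and Anapc13 (1.23-fold higher) rose. Of 17 tested genes 3 fell (17.6%, beside 17.9% of all tested genes) and 4 rose, and 2 rose when alone replicate 2, or co-culture replicate 3, was left out. Over all tested genes 13.9% rose, and the median log2 change of this list was 0.04.

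Among DNA replication genes 5 of 39 fell (12.8%, below the 17.9% of all tested genes) and 2 rose (median log2 change −0.02). Rrm2, a subunit of ribonucleotide reductase (1.51-fold lower, 8.26 ± 0.626 to 5.47 ± 0.93 FPKM, limma adjusted p = 0.00197), and Mcm2, a subunit of the replicative helicase (1.302-fold), fell whichever library was left out, and the count of 5 was 2 without any 1 of 3 libraries (alone replicate 2 and, in co-culture, replicates 1 and 2). The rises of Rpa1 (1.12-fold) and Gins4 (1.12-fold) were both lost without any 1 of 3 libraries (alone replicate 2 and, in co-culture, replicates 1 and 3), and that of Gins4 also without alone replicate 3 (limma adjusted p 0.05301 to 0.0703 for Gins4, 0.0569 to 0.0648 for Rpa1). Among 25 regulators of G1, 8 fell (32%, beside 17.9%) and 4 rose (median log2 change −0.09). Cdkn1a, which codes for the CDK inhibitor p21, fell (1.38-fold lower, 43.4 ± 0.749 to 31.4 ± 0.916 FPKM, limma adjusted p = 1.23e-05), as did Rb1 (1.41-fold) and Ccnd2, cyclin D2 (1.18-fold), while Cdkn2a rose (1.13-fold). The count of 4 that rose was 2 when alone replicate 2 or 3, or 1 of co-culture replicates 1 and 2, was left out.

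**Figure D5:**
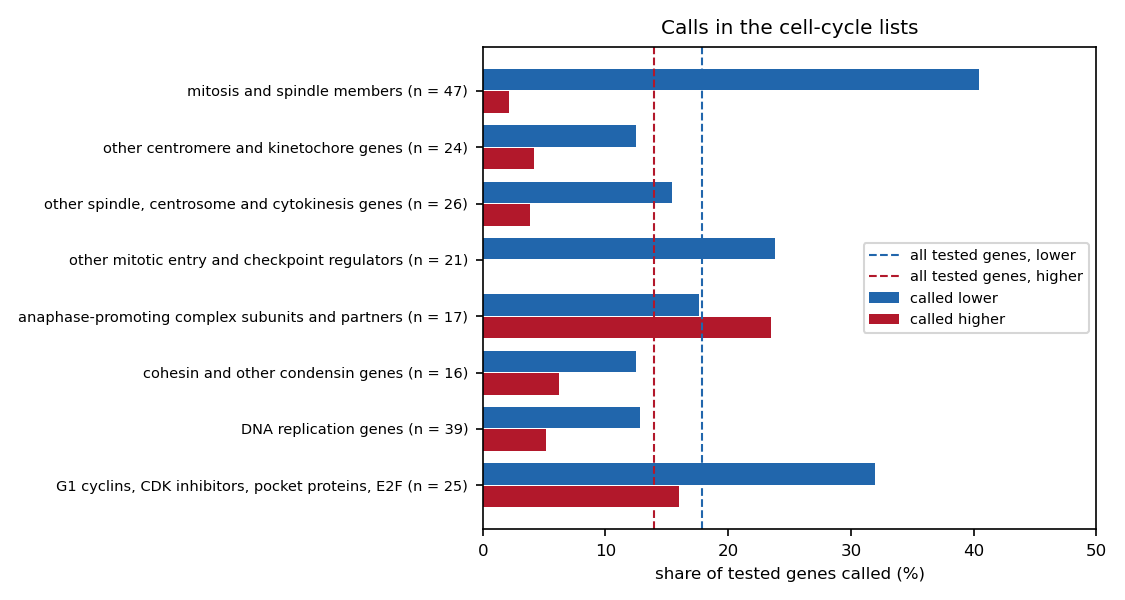
Share of tested genes called lower (blue bars) and higher (red bars) in co-culture for the 47 genes (top pair of bars) and 7 lists of other cell-cycle genes, with the number tested; dashed lines are the shares over all tested genes (17.9% lower and 13.9% higher). The blue bar of the 47 genes reaches 40.4%.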

How the data were processed

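The authors deposited 1 FPKM value per gene and library for 6 libraries. Per the labels' protocols, TRIzol was used to extract RNA and a VAHTS Universal V6 kit to build the libraries. Per the submitters' processing notes, the tools were HISAT2, HTSeq and fastp and the build was mm10. The gene annotation, strand setting and handling of human reads are not stated. Low FPKM values of a gene are whole multiples of 1 read, which gave read numbers for all 21436 genes and the library totals (scale set by the 1545 bp of COX1; 99.2% of 10549 genes with at least 100 reads then had whole-number lengths, and 100% after 419 genes of any depth were multiplied by a common factor). The gene lengths behind the FPKM values were 0.249 to 1.44 times the merged GENCODE M21 exons of the 47 genes. Such a factor scales levels and leaves ratios of mean FPKM as they are. Through the 1 FPKM added before the log and the filter, it also bears on log2 changes and on which genes were tested. Intervals cover the spread between libraries.

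The main test was limma 3.58.1 (R 4.3.3; lmFit and trended eBayes) of co-culture against alone, on log2(FPKM + 1). It ran over the 10055 genes whose mean reached 1 FPKM and made calls at a Benjamini-Hochberg adjusted p below 0.05. It was also run on simulated reads, with the same spread setting for every gene and no library that stood apart. That run therefore does not show how the test performs on these data. No pair of replicates had counts so alike that it looked like the same library. Alternatives were pseudocounts of 0.1 and 0.01, no filter, a filter at 5 FPKM, 3 other scalings, no trend, array weights, a replicate block, each library left out, a threshold of 0.01 and limma-voom on the recovered reads. Members, lists and naming rule were chosen with earlier results of these data known; named were all 47 genes, with every library's value for up to 4 per role by smallest p and the most abundant, and up to 4 called genes per other list. Lin9, Lin37, Lin54, Psrc1, the overlapping neighbours and the single markers were added after their values were seen.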

Additional observations from a re-analysis of the deposited data

How the results depend on the processing

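Of the 19 genes called lower, 12 were called under each of the 18 alternatives that tested them and 0 changed direction; Tpx2 stayed the 1 gene called higher in each. The number lower was 12 without a filter (21436 genes tested) and 8 with a filter at 5 FPKM, where 19 of the 47 were tested. It was 13 at a threshold of 0.01, 17 with the replicate block, 18 with TPM scaling, 23 with array weights, 20 with limma-voom on the recovered reads, and 14 to 18 with a library left out. With the block Racgap1 and Hmmr were no longer called. Same-numbered libraries did not deviate together (r = −0.044, 0.109 and −0.083 across genes), so the numbers were not taken as pairs. The median log2 change of −0.14 was −0.18 and −0.19 with pseudocounts of 0.1 and 0.01, −0.077 with the filter at 5 FPKM, −0.17 with TPM scaling and −0.20 with limma-voom, and −0.16 to −0.12 with a library left out; no scaling moved the median of all genes by over 0.1. Small log2 changes that were not called changed sign in 7 genes. Bub3 was at 0.022 and Pttg1 at 0.016 with quantile scaling, and Spc24 at 0.013 and Pttg1 at 0.0095 with array weights. With a library left out, Cdc25b ran from −0.013 to 0.089, Aurkb from −0.086 to 0.013, Bub3 from −0.059 to 0.016, Cenpa from −0.070 to 0.179, Spc24 from −0.212 to 0.029, Kif4 from −0.012 to 0.032 and Pttg1 from −0.054 to 0.031. For the other lists, 185 counts stayed within 1.5 times under an alternative and 67 fell further than that. Over all genes tested, 1799 lower and 1402 higher became 1073 and 635 at a threshold of 0.01, and 1402 higher became 919 without co-culture replicate 3. Of the genes that changed sign, the lowest read number in a library was 41 for Spc24, 111 for Aurkb and 309 for Cenpa. It was 502 for Pttg1, 657 for Cdc25b, 727 for Kif4 and 2742 for Bub3. The part of depth was not tested. The causes were not tested.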
